A study of Homo sapiens with 6 samples.

Results

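Aminoacyl-tRNA synthetases charge each transfer RNA with its amino acid and so supply the ribosome with its substrates. Their genes were compared between U2OS cells kept in a PARG inhibitor and U2OS cells kept in the solvent DMSO. The members were taken from a list of gene symbols, matched to the gene identifiers of the count files: 19 genes of cytosolic synthetases or their subunits, 16 genes of mitochondrial synthetases and 3 genes of the scaffold proteins AIMP1, AIMP2 and EEF1E1. All 38 members were found among the 60708 gene identifiers, and all 38 were among the 20409 genes that passed the filter on low counts. The list was drawn up by gene name, with earlier results of these data known.

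U2OS is an established human osteosarcoma line. Both groups were wild-type cultures of the line, grown in DMEM with serum and antibiotics; the DMSO group received DMSO, and the PARGi group received PDD00017273 at 25 µM, each for 4 days. PDD00017273 inhibits PARG, the glycohydrolase that removes poly(ADP-ribose) chains from proteins. Each group had 3 libraries, described as biological triplicates, made from total RNA with a stranded kit. The design held 1 cell line, 1 dose and 1 time. Each library holds the RNA of a whole culture, so fewer cells that hold a transcript and less of it per cell cannot be told apart.

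Cells carry largely separate sets of synthetases for translation in the cytosol and in mitochondria, and the genes of both sets lie in the nucleus. In the cytosol, several synthetases are held together with the 3 scaffold proteins in the multi-tRNA synthetase complex, while others act alone or as dimers. The genes of many cytosolic synthetases are known targets of ATF4, the transcription factor of the integrated stress response, which binds C/EBP-ATF composite elements at amino acid biosynthesis, transport and charging genes. GARS1 and KARS1 each encode both the cytosolic and the mitochondrial enzyme for their amino acid.

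Because that element is the best known shared regulatory sequence of these genes, their promoters were searched for it. The windows ran from 250 bases before to 50 bases after each start site in a RefSeq table on GRCh38.p14. A window was found for 33 of the 38 members, 45 windows in all; AARS2, LARS1, VARS1, VARS2 and YARS1 had none in the table. The motif TGATGNAAN, searched on both strands, was present in 8 members, 7 of the 16 cytosolic genes with a window and 1 of the 14 mitochondrial genes. It was in 8 of the 45 member windows (17.8%) and in 1268 of all 35116 windows of the same length (3.61%); counted by gene, 1215 of 27305 genes (4.45%) held it. The stricter form TGATGCAAT was in TARS1 alone among the members and in 83 of all windows (0.236%). Such a match is a description of the letters in the window and says nothing of binding. The stretches that hold the matches are shown on the strand of the gene, with the motif (or its reverse complement, as in all but NARS1 and YARS2) in capitals.

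AARS1, chr16:70289656-70289724, minus strand: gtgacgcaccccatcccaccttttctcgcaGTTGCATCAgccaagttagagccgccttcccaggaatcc
CARS1, chr11:3057418-3057456, minus strand: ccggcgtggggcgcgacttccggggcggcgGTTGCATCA
GARS1, chr7:30594814-30594877, plus strand: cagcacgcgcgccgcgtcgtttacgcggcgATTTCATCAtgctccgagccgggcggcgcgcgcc
IARS1, chr9:92293698-92293741, minus strand: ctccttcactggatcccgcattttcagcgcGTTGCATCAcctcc
MARS1, chr12:57488033-57488071, plus strand: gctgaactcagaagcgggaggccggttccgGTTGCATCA
NARS1, chr18:57621814-57621852, minus strand: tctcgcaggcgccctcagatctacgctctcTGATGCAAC
TARS1, chr5:33440936-33440974, plus strand: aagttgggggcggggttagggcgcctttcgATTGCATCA
YARS2, chr12:32756056-32756124, minus strand: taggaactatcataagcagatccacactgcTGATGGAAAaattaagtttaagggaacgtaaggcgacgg

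In 6 of the 7 cytosolic genes the match began within 34 bases of the start site, at -34 in GARS1, -14 in IARS1, -5 in MARS1, -3 in CARS1, +2 in TARS1 and +15 in NARS1. In AARS1 it began at -188, and in the mitochondrial gene YARS2 at -197. The form TGATGCAAC was shared by AARS1, CARS1, IARS1, MARS1 and NARS1. No match was found in the windows of SARS1, WARS1 and EPRS1, which are commonly listed as ATF4 targets too, or in those of the scaffold genes.

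The libraries held 60286931 to 80605145 counts. Levels are given as CPM (the share of a library's counts, scaled to 1e6 and by TMM), and differences as log2 fold changes of PARGi over DMSO from edgeR's quasi-likelihood test, with a gene called when its Benjamini-Hochberg adjusted p over all 20409 genes was under 0.05. The line's markers fitted its label in part: COL1A1, VIM and SPARC stood at 4374, 2476 and 1677 CPM in DMSO, while the osteoblast markers SP7 and BGLAP were at or near 0. Markers of epithelial, blood, endothelial and liver cells summed to 5.53 to 6.16 CPM in DMSO and 5.37 to 5.94 CPM in PARGi libraries. Of the 6 tested markers of the line's own lineage, COL1A2 (log2 fold change -0.80), RUNX2 and SPARC were called lower and ALPL higher, and of the 4 tested markers of other cells CDH1 was called higher (0.67); their part in the results was not tested. Over all genes tested, 24.3% were called, 13.2% higher and 11.0% lower in PARGi, with a median log2 fold change of -0.0070. Of the calls, 54.5% were higher, and 40.5% were under upper-quartile scaling.

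Among the cytosolic synthetases, 13 of 19 genes were called (68.4%), 11 higher and 2 lower in PARGi. Their median log2 fold change was 0.090, and 16 of 19 lay above 0. The mitochondrial synthetases had 2 of 16 genes called (12.5%), both higher, with a median of 0.031 and 9 of 16 above 0. None of the 3 scaffold genes was called by edgeR or DESeq2, and none had an unadjusted p under 0.05. The largest log2 fold change of a cytosolic gene was 0.19, in SARS1, and the median size over all called genes was 0.19. Calls depend on level, and the cytosolic genes were the more abundant, with a median of 167 CPM against 26.3 CPM for the mitochondrial genes. Within the range of DMSO levels that the cytosolic genes spanned, 37.6% of all genes were called, and within the range of the mitochondrial genes 29.2% were. The mitochondrial count was 1 without PARGi library 1 or PARGi library 2, and 3 without DMSO library 1 or DMSO library 3. Under upper-quartile scaling, 7 cytosolic genes were called higher and 2 lower, and 1 mitochondrial gene in each direction. Without GARS1 and KARS1, 10 cytosolic genes were called higher and 2 lower among 17.

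**Figure D1:**
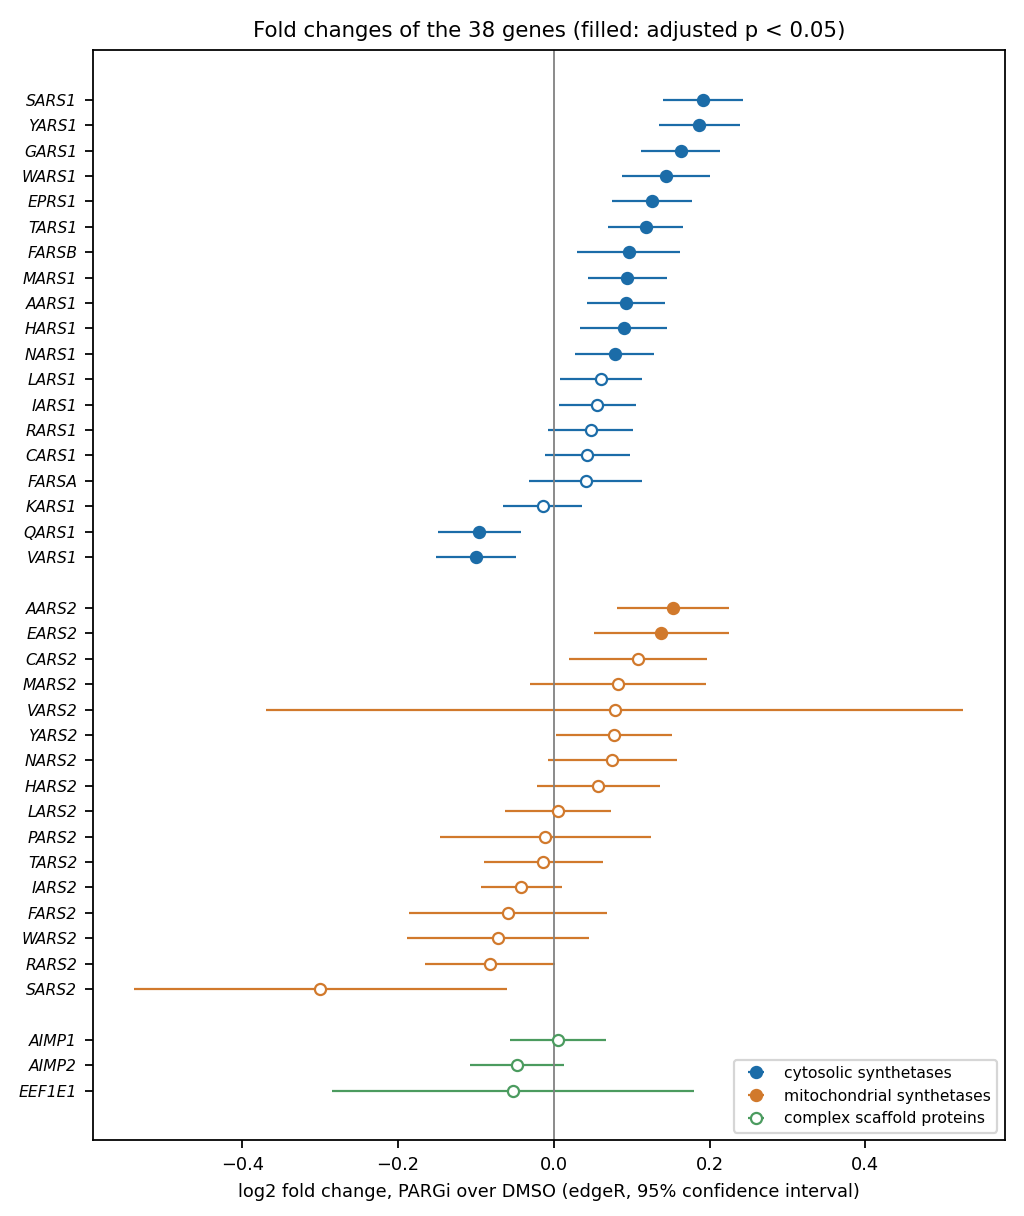
Log2 fold change of PARGi over DMSO for each of the 38 members, with the 95% interval from edgeR, grouped by cytosolic, mitochondrial and scaffold genes. Most cytosolic genes lie to the right of 0, from -0.099 for VARS1 to 0.19 for SARS1, while the mitochondrial genes lie on both sides with wider intervals.

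The groups of libraries did not overlap in 17 of the 19 cytosolic genes, in 6 of the 16 mitochondrial genes and in 0 of the 3 scaffold genes, against 38% of all genes tested.

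SARS1 charges serine tRNA and also the selenocysteine tRNA, and it had the largest log2 fold change of the cytosolic genes. It stood at 202, 199.8 and 206 CPM in DMSO and at 229, 231 and 235 CPM in PARGi libraries 1 to 3. Every PARGi library was above every DMSO library, and the rise was 14.2% (log2 fold change 0.19, SE 0.025, edgeR adjusted p 3.00e-06). YARS1, the tyrosine enzyme, stood at 128, 125 and 125 CPM in DMSO and at 144, 143 and 143 CPM in PARGi. The groups lay apart with little spread within either, and the log2 fold change was 0.19 (SE 0.025, edgeR adjusted p 5.12e-06).

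GARS1, the glycine enzyme of both compartments, was measured at 195, 200.3 and 194 CPM in DMSO and at 221, 219 and 219 CPM in PARGi. All PARGi libraries were the higher ones, by 0.16 on the log2 scale (SE 0.025, edgeR adjusted p 2.50e-05). Its match in the sequence above, ATTTCATCA on the gene's strand, ends before the start site. Levels of WARS1, which charges tryptophan and is also known as an interferon-induced gene, were 69.0, 70.2 and 67.9 CPM in DMSO libraries and 76.6, 75.7 and 76.7 CPM in PARGi. The PARGi libraries again lay above the DMSO libraries without overlap (log2 fold change 0.14, SE 0.027, edgeR adjusted p 0.000338).

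EPRS1 encodes the fused glutamate and proline enzyme, a member of the complex that holds both synthetase classes in 1 protein. Its level was 222, 223 and 219.9 CPM in DMSO libraries and 236, 244 and 245 CPM in PARGi. PARGi library 1 was the lowest of its group and still above all DMSO libraries (log2 fold change 0.13, SE 0.025, edgeR adjusted p 0.000501). TARS1, the threonine enzyme, stood at 324, 326 and 319 CPM in DMSO and at 350.2, 350.5 and 350.4 CPM in PARGi. The PARGi values were nearly identical and all higher, by 0.12 on the log2 scale (SE 0.023, edgeR adjusted p 0.000576). TARS1 was also the most abundant member in CPM and the only one whose promoter window held the strict motif.

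MARS1 charges both initiator and elongator methionine tRNA. It stood at 247, 254 and 244 CPM in DMSO and at 266, 264 and 265 CPM in PARGi, with no overlap (log2 fold change 0.094, SE 0.025, edgeR adjusted p 0.00633). Under upper-quartile scaling its adjusted p was 0.0525. MARS1 exons overlap those of DDIT3 and ARHGAP9 on the opposite strand over 874 bases, and DDIT3 was lower in PARGi where MARS1 was higher. AARS1, the alanine enzyme, stood at 206, 205 and 207 CPM in DMSO and at 223, 219.7 and 216 CPM in PARGi. Its groups lay apart by more than their spread (log2 fold change 0.093, SE 0.024, edgeR adjusted p 0.00672).

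HARS1, the histidine enzyme, stood at 77.4, 74.8 and 74.9 CPM in DMSO and at 80.3, 80.2 and 81.1 CPM in PARGi. The groups did not overlap, and the log2 fold change was 0.090 (SE 0.027, edgeR adjusted p 0.0172). Its adjusted p was 0.0518 without PARGi library 2, 0.0812 without PARGi library 3 and 0.0942 under upper-quartile scaling. HARS1 shares 658 exonic bases on opposite strands with HARS2 and WDR55, and WDR55 rose by 0.15 on the log2 scale (edgeR adjusted p 0.000912). The part of such overlaps in the HARS1 count was not tested. NARS1, the asparagine enzyme, stood at 153 CPM in each DMSO library and at 160.1, 164 and 161 CPM in PARGi. All PARGi libraries were higher (log2 fold change 0.078, SE 0.025, edgeR adjusted p 0.0224). This was the least stable call of the group, with adjusted p of 0.0581 without DMSO library 1, 0.124 without PARGi library 2 and 0.0642 without PARGi library 3. It was also lost under upper-quartile scaling (0.137), among protein-coding genes alone (0.0518) and with an offset for GC content and length (0.0501, or 0.0772 with the replicate block).

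Phenylalanine is charged in the cytosol by an enzyme of alpha subunits, encoded by FARSA, and beta subunits, encoded by FARSB. FARSB rose from 63.3 ± 2.49 to 67.6 ± 1.82 CPM (mean ± SD, n = 3; log2 fold change 0.096, SE 0.032, edgeR adjusted p 0.0296). FARSA was not called, at 56.8 ± 3.40 CPM in the DMSO group against 58.4 ± 0.52 in the PARGi group (log2 fold change 0.041, edgeR adjusted p 0.444), and its groups overlapped. The FARSB call was lost without DMSO library 3 (adjusted p 0.157), without PARGi library 1 (0.156) and without PARGi library 3 (0.0746). It was also lost under upper-quartile scaling (0.116) and among protein-coding genes alone (0.0588). The difference between the 2 subunits was not tested.

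VARS1 and QARS1 were the synthetase genes called lower in PARGi. VARS1, the valine enzyme, which binds elongation factor 1 subunits rather than the synthetase complex, stood at 150.0, 149 and 148 CPM in DMSO and at 141, 138 and 138 CPM in PARGi. Each PARGi library was below each DMSO library (log2 fold change -0.099, SE 0.025, edgeR adjusted p 0.00443). QARS1, the glutamine enzyme of the complex, stood at 245, 244 and 236 CPM in DMSO and at 231, 222 and 224 CPM in PARGi. The groups did not overlap, with PARGi library 1 nearest to DMSO library 3 (log2 fold change -0.095, SE 0.026, edgeR adjusted p 0.0076). Without PARGi library 2 or PARGi library 3 the adjusted p of QARS1 was 0.0665 or 0.0522.

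**Figure D2:**
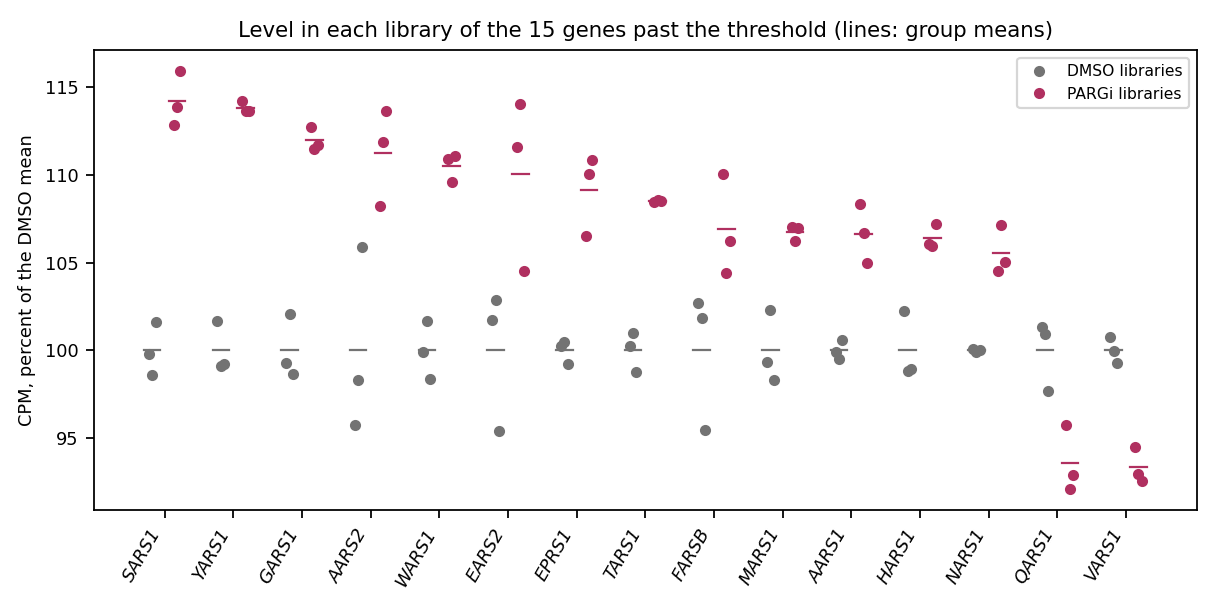
Level of each called member in every library, as a percent of its mean over the DMSO libraries, with 1 point for each library of the DMSO and PARGi groups. The points of the 2 groups lie apart for all 15 genes, and VARS1 and QARS1 are the genes whose PARGi points lie below.

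Of the cytosolic genes that were not called, 5 had log2 fold changes above 0 and KARS1 lay below. IARS1, the isoleucine enzyme of the complex, stood at 262 ± 2.95 CPM in the DMSO group against 272 ± 1.71 in the PARGi group (edgeR adjusted p 0.0932, n = 3). LARS1, the leucine enzyme, which is also known as a leucine sensor for mTORC1, stood at 167 ± 1.98 and 174 ± 3.95 CPM (edgeR adjusted p 0.0924, n = 3). Their groups did not overlap, nor did those of RARS1 for arginine (log2 fold change 0.047) and CARS1 for cysteine (0.043). KARS1, the lysine enzyme of both compartments, stood at 259, 266 and 258 CPM in DMSO and at 260.1, 255 and 259.8 CPM in PARGi. The libraries were mixed in order, and the 95% interval of the KARS1 log2 fold change ran from -0.065 to 0.037. TERF2IP, whose start lies 857 bases from that of KARS1 on the opposite strand, rose by 0.14 on the log2 scale (edgeR adjusted p 0.000521).

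The mitochondrial enzymes charge the tRNAs encoded by mitochondrial DNA. AARS2, the alanine enzyme, stood at 51.9, 53.3 and 57.4 CPM in DMSO and at 58.7, 60.6 and 61.6 CPM in PARGi. The groups did not overlap, with DMSO library 3 nearest to the PARGi libraries (log2 fold change 0.15, SE 0.035, edgeR adjusted p 0.00197). EARS2, the glutamate enzyme, stood at 26.6, 26.9 and 25.0 CPM in DMSO and at 29.2, 29.9 and 27.4 CPM in PARGi. PARGi library 3 lay close above the DMSO group (log2 fold change 0.14, SE 0.042, edgeR adjusted p 0.0182). The EARS2 call was lost without DMSO library 3 (adjusted p 0.0910), PARGi library 1 (0.0717) or PARGi library 2 (0.119), and under upper-quartile scaling (0.0517).

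Only 1 mitochondrial gene that was not called had an unadjusted p under 0.05 and a lower level, SARS2, the serine enzyme. It stood at 2.36, 2.40 and 2.26 CPM in DMSO and at 1.92, 1.91 and 1.88 CPM in PARGi, with no overlap. The log2 fold change was -0.30 with a 95% interval of -0.54 to -0.061 (edgeR adjusted p 0.0624). SARS2 passed the threshold under upper-quartile scaling (0.0459) and among protein-coding genes alone (0.0425). Its count is uncertain, since 39.5% of its transcript sequence, taken as words of 50 bases, also belongs to an overlapping gene on the same strand, ENSG00000269547, which held 27 counts over the 6 libraries. The neighbour MRPS12, with a start 348 bases away on the opposite strand, had a log2 fold change of 0.076 (edgeR adjusted p 0.153).

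The other mitochondrial genes gave log2 fold changes from -0.082 for RARS2 to 0.11 for CARS2, and none was called. CARS2, the cysteine enzyme, stood at 21.0 ± 1.01 and 22.6 ± 0.24 CPM (edgeR adjusted p 0.0692, n = 3) and was called without DMSO library 3 (0.0211). NARS2, the asparagine enzyme, with a log2 fold change of 0.075 (edgeR adjusted p 0.185), was called without DMSO library 1 (0.0116), the highest of its DMSO libraries. RARS2, the arginine enzyme (edgeR adjusted p 0.151), was called lower without DMSO library 3 (0.0451). IARS2, the isoleucine enzyme and the most abundant mitochondrial member, stood at 147 ± 2.60 and 143 ± 1.09 CPM (edgeR adjusted p 0.252, n = 3). YARS2, the tyrosine enzyme that held the motif in its promoter window, stood at 29.6 ± 0.72 and 31.2 ± 0.36 CPM (edgeR adjusted p 0.127, n = 3).

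MARS2 for methionine (0.082) and HARS2 for histidine (0.057) had log2 fold changes above 0, and WARS2 for tryptophan (-0.072) and FARS2 for phenylalanine (-0.059) below. Those nearest to 0 were TARS2 for threonine (-0.013), PARS2 for proline (-0.011) and LARS2 for leucine (0.0052). VARS2, the valine enzyme, was at 0.685 CPM in DMSO, and its log2 fold change of 0.078 had an SE of 0.22. Of the sequence of VARS2, 21.1% was shared with other genes, most of it with GTF2H4. With that SE, a change of the size seen in the cytosolic genes was not detectable.

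The groups of libraries overlapped for each of the 3 scaffold genes. AIMP2, which joins the subcomplexes, stood at 63.6 ± 1.39 CPM in the DMSO group against 61.5 ± 1.19 in the PARGi group (log2 fold change -0.047, edgeR adjusted p 0.267, n = 3). AIMP1 stood at 67.2 ± 2.32 and 67.4 ± 0.35 CPM (log2 fold change 0.0057, edgeR adjusted p 0.920, n = 3). EEF1E1, also called AIMP3, was listed at only 2.59 ± 0.16 and 2.49 ± 0.25 CPM (log2 fold change -0.052, edgeR adjusted p 0.791, n = 3), and 17.8% of its sequence was shared with other genes, most of it with the readthrough gene EEF1E1-BLOC1S5.

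The 7 synthetases of the complex held 3 of the called genes, EPRS1 and MARS1 higher and QARS1 lower, with a median log2 fold change of 0.056. That is 42.9% of the 7, against 37.6% of all genes at the levels of the cytosolic genes and 24.3% of all genes. The 12 cytosolic genes outside it held 9 called higher and 1 lower, VARS1 (83.3% in all), with a median of 0.094. By catalytic fold, 7 of the 9 cytosolic class II genes were called (77.8%), all higher, with a median of 0.093. Of the 9 cytosolic class I genes, 3 were called higher and 2 lower (55.6% in all), with a median of 0.056. EPRS1 holds both folds and was counted in neither. The differences between these groups of genes were not tested.

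Of the 12 synthetase genes commonly listed as ATF4 targets, 9 were called, all higher, and the other 3, CARS1, IARS1 and LARS1, had log2 fold changes above 0. Their median log2 fold change was 0.11, and the groups of libraries did not overlap in any of the 12. Over all genes 24.3% were called and 38% did not overlap, and 37.6% were called at the levels of the cytosolic genes. The 7 cytosolic genes outside that list held 2 called higher (FARSB, HARS1) and 2 lower (QARS1, VARS1), with a median of 0.041. The number called among those 7 was 2 without PARGi library 2 (1 in each direction) and 1, lower, without PARGi library 3. Of the 7 cytosolic genes with the motif, 5 were called, all higher. Of the 9 whose windows lacked it, 6 were called, QARS1 lower and the others higher. GARS1 and TARS1 had the motif, while SARS1, WARS1 and EPRS1 lacked it.

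As sums, the cytosolic synthetase genes took 3253, 3257 and 3207 CPM in DMSO libraries and 3411, 3399 and 3418 CPM in PARGi. The mitochondrial genes took 493.9, 487 and 489 CPM in DMSO libraries and 497, 502 and 498 CPM in PARGi. Both sums were higher in every PARGi library, by 0.074 and 0.025 on the log2 scale, and the mitochondrial difference was 0.00026 under upper-quartile scaling. The ratio of the sums does not depend on the scaling. On the log2 scale it was 2.72 ± 0.015 in DMSO and 2.77 ± 0.012 in PARGi (SD, n = 3), a difference of 0.049 with no overlap between the groups.

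For 15 amino acids the genes of a cytosolic and a mitochondrial enzyme were compared within each library, as the log2 ratio of their CPM. The pairs were drawn from the members alone, and for phenylalanine FARSA was used and FARSB was not. The ratio was higher in PARGi for 11 amino acids and lower for 4, with a median difference of 0.056. It was higher for 10 to 13 when a library was left out. Among the 11, methionine (0.016) and asparagine (0.0014) had overlapping groups and no stable sign. Methionine gave -0.0092 without PARGi library 1. Asparagine gave -0.057 without DMSO library 1 and -0.014 without PARGi library 2. The groups did not overlap for 7 amino acids, with the ratio higher for 6 of them. For each of these 7 the exact two-sided permutation p was 0.1, the smallest that 3 against 3 libraries allow, and 0.214 after adjustment over the 15 amino acids.

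Serine had the largest difference in ratio. SARS1 over SARS2 gave log2 ratios of 6.42, 6.38 and 6.51 in DMSO and 6.90, 6.92 and 6.97 in PARGi, a difference of 0.49 to which both genes contributed. Tryptophan followed with 2.57, 2.64 and 2.43 in DMSO and 2.79, 2.78 and 2.71 in PARGi, a difference of 0.21. The ratios for threonine (0.13), arginine (0.13), tyrosine (0.11) and isoleucine (0.097) were also higher without overlap. Cysteine was the 1 amino acid with a lower ratio and no overlap, by -0.068 (-0.040 without DMSO library 2). For alanine (-0.062) and glutamate (-0.012), whose mitochondrial genes AARS2 and EARS2 were called higher, the groups overlapped. The alanine difference was -0.032 without DMSO library 1, -0.035 without PARGi library 3 and -0.10 without DMSO library 3. The glutamate difference had no stable sign: it was 0.016 without DMSO library 3 or PARGi library 1, 0.0082 without PARGi library 2 and -0.060 without PARGi library 3. Valine gave -0.18 with overlapping groups, and was 0.034 without DMSO library 3 and -0.30 without DMSO library 1.

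**Figure D3:**
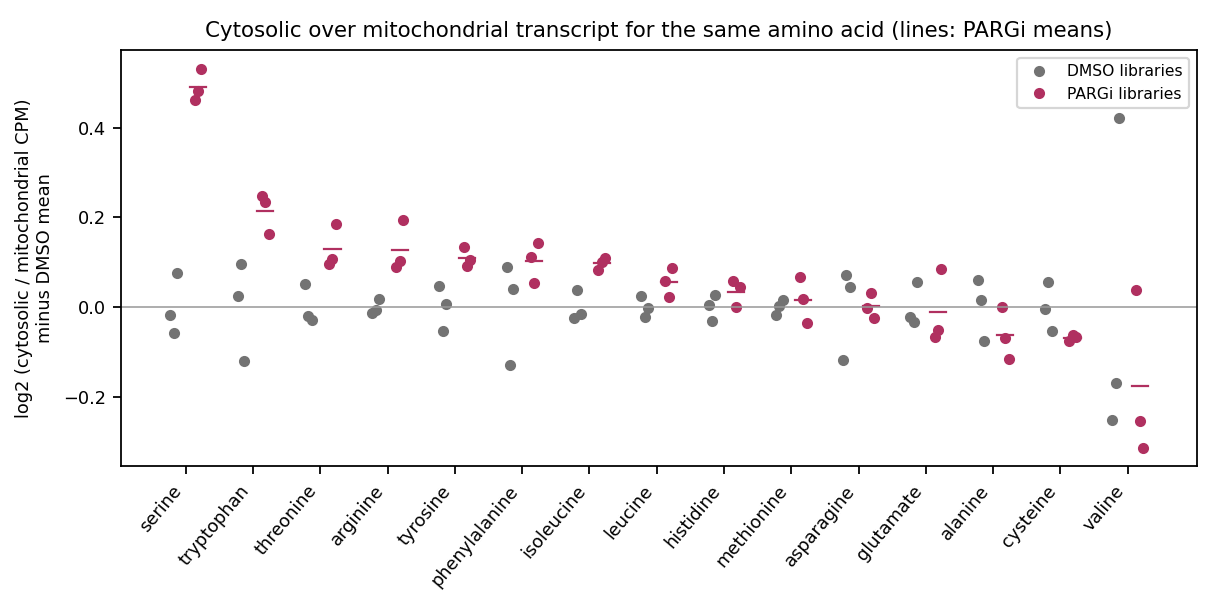
Log2 ratio of the cytosolic to the mitochondrial gene for 15 amino acids, as the difference of each library from the mean of the DMSO libraries. PARGi points lie above all DMSO points for serine, tryptophan, threonine, arginine, tyrosine and isoleucine, and below them for cysteine.

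Levels between genes were compared per kilobase of exonic length in GENCODE 29, as CPM per kilobase in DMSO. KARS1 was highest at 64.1, followed by TARS1 at 56.5, SARS1 at 52.8, QARS1 at 51.3 and GARS1 at 47.3. IARS2 led the mitochondrial genes at 35.2, above 8 of the cytosolic genes and close to IARS1 at 35.4 and MARS1 at 35.3. AIMP2 stood at 34.6 and AIMP1 at 20.2, close to LARS1 at 20.6, the lowest of the 7 synthetases of the complex, while EEF1E1 stood at 1.23. At the bottom were SARS2 at 0.725 and VARS2 at 0.0811. The most abundant member by this scale, KARS1, was thus among those not called, and the called genes ran from EARS2 at 4.57 to TARS1.

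**Figure D4:**
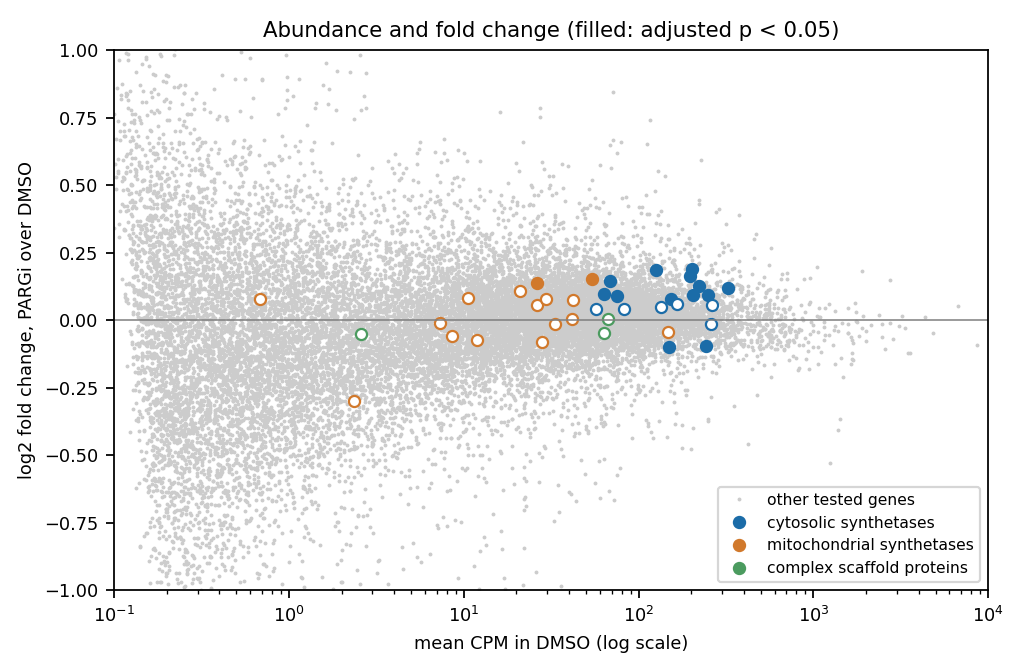
Log2 fold change against the mean DMSO level in CPM (log axis), with all genes tested in grey and the members coloured by list; genes beyond the limits of the axes are not drawn. The cytosolic genes lie at the higher levels, where the grey cloud is narrow, and mostly above 0.

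Other genes of amino acid supply and translation were read from lists chosen by name. Of 26 ATF4 targets other than synthetases, 15 were called higher and 3 lower (69.2% in all, against 24.3% of all genes), with a median log2 fold change of 0.13. MTHFD2, a mitochondrial enzyme of one-carbon metabolism, rose from 195 ± 0.86 to 232 ± 3.48 CPM (log2 fold change 0.25, edgeR adjusted p 4.22e-08, n = 3). PHGDH, which opens the serine synthesis pathway, rose by 0.24 (edgeR adjusted p 5.11e-08). DDIT4, an inhibitor of mTORC1 signalling, fell by 0.33 on the log2 scale (edgeR adjusted p 6.63e-08). DDIT3, the stress factor CHOP, stood at 6.79 ± 0.086 CPM in the DMSO group against 5.71 ± 0.40 in the PARGi group (log2 fold change -0.25, edgeR adjusted p 0.0113, n = 3), and its adjusted p was 0.0950 without PARGi library 3. The other gene of the list that fell was ASNS, asparagine synthetase, at only 1.33 CPM in DMSO and with 40.6% of its sequence shared with other genes; it is named after its values were seen. ATF4 itself was not called, at 292 ± 1.31 and 299 ± 3.69 CPM (log2 fold change 0.037, edgeR adjusted p 0.285, n = 3), with 17.9% of its sequence shared with other genes.

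Of 12 amino acid transporter genes, 6 were called higher and 2 lower, with a median log2 fold change of 0.12. That is 66.7% in all, against 24.3% of all genes. SLC7A5 and SLC3A2, the 2 chains of the LAT1 exchanger of large neutral amino acids, rose by 0.27 and 0.19 on the log2 scale (edgeR adjusted p 1.39e-08 and 1.28e-05). SLC7A11, the cystine and glutamate exchanger, which also pairs with SLC3A2, rose by 0.27 (edgeR adjusted p 9.38e-06). The stress response kinases and eIF2 factors gave 4 called higher and 1 lower among 19 (26.3%, against 24.3% of all genes), with a median of 0.018; the number called was 3 without DMSO library 1 and 2 without PARGi library 1 or PARGi library 2. EIF2B3, a subunit of the exchange factor of eIF2, rose by 0.25 (edgeR adjusted p 4.39e-05). EIF2S2, the beta subunit of eIF2, rose by 0.17 (edgeR adjusted p 1.06e-05), although 22.6% of its sequence is shared with other genes. EIF2AK2, the double-stranded RNA kinase PKR, rose by 0.096 (edgeR adjusted p 0.0131), a call lost without PARGi library 1 (0.0679) or PARGi library 2 (0.0811) and under upper-quartile scaling (0.0683). EIF2AK4, the kinase GCN2 that senses uncharged tRNA, was not called (log2 fold change 0.062, edgeR adjusted p 0.0881), nor was EIF2AK1, the heme-regulated kinase (0.014, edgeR adjusted p 0.735).

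Of the 6 cytosolic elongation factor genes tested, 3 were called, all lower, with a median log2 fold change of -0.083. That is 50% of the 6, against 24.3% of all genes called and 11.0% called lower. Calls depend on level, and the median level of the 6 in DMSO was 586 CPM. The number called was 2 without DMSO library 3 or PARGi library 3 and with the replicate block. EEF2, which moves the ribosome along, fell by 0.12 on the log2 scale (edgeR adjusted p 0.000238). EEF1A1, which delivers the charged tRNA, fell by 0.090 (edgeR adjusted p 0.00528); 20.4% of its sequence is shared with other genes, its pseudogenes first. EEF1D, of the exchange complex that VARS1 binds, fell by 0.076 (edgeR adjusted p 0.0318), a call lost without DMSO library 3 (0.0905), PARGi library 2 (0.186) or PARGi library 3 (0.133) and with the replicate block (0.0521). EEF1G had 0 counts in all libraries, with 95.8% of its sequence shared with other genes, and was not tested.

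Mitochondrial translation factors held 1 called gene of 13 (7.69%, against 24.3% of all genes). It was GFM2, a factor of ribosome recycling that rose by 0.12 (edgeR adjusted p 0.0116). That call was lost without PARGi library 1 (0.0811) or PARGi library 2 (0.0566). The median of that list was 0.0083, and 3 of its genes were called without DMSO library 3. Among 20 genes of tRNA maturation, export and proofreading, 3 were called higher and 1 lower, with a median of 0.027; this share of 20% was below the 24.3% of all genes. POP1, of RNase P, rose by 0.22 (edgeR adjusted p 0.000124) and ELAC2, which trims the 3′ end of tRNA precursors, by 0.12 (edgeR adjusted p 0.00369). TRMT1, a tRNA methyltransferase, fell by 0.15 on the log2 scale (edgeR adjusted p 0.00306).

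**Figure D5:**
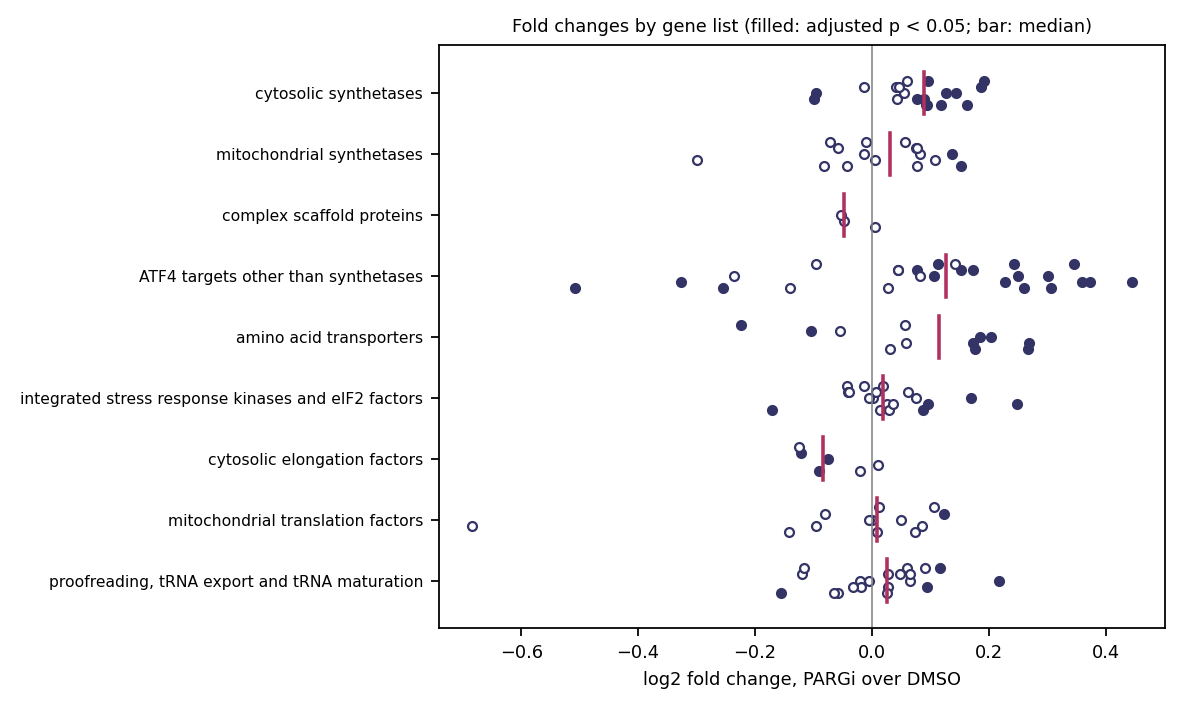
Log2 fold change of each gene in the synthetase lists and in the other lists of amino acid supply and translation, with called genes marked and the median of each list drawn as a bar. The medians run from -0.083 for the cytosolic elongation factors to 0.13 for the ATF4 targets other than synthetases.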

How the data were processed

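The deposited files hold raw whole-number counts per gene, 1 column for each library, which the authors made without normalisation; the unit was checked on the values. Per the submitters' processing notes, cutadapt 1.18, STAR 2.7.3a and SAMtools 1.9 were among the tools and hg38 was the build. The annotation release, and whether counting used strand, are not given in the sources used here; the kit, per the labels' protocols, keeps strand. Without strand, reads of overlapping genes on opposite strands cannot be told apart. Groups and replicate numbers came from the sample titles.

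Counts of 60708 gene identifiers were filtered with edgeR's filterByExpr (minimum count 10), leaving 20409, scaled by TMM (factors 0.995 to 1.007) and tested with glmQLFit and glmQLFTest in edgeR 4.0.16 under R 4.3.3, on treatment alone. Adjusted p-values are Benjamini-Hochberg over all genes tested, with 0.05 as threshold. The common biological coefficient of variation was 2.70%. No pair of libraries looked like a duplicate: the chi-square per degree of freedom was 2.28 to 6.15 within groups and 12.6 to 16.4 between them. Symbols were found for 60463 identifiers, and positions and exonic lengths came from GENCODE 29 on GRCh38, in which 58440 were found. The fitting script was tested on simulated data. Intervals cover 95%.

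The members and lists were chosen with earlier results of these data known. All members are named; the up to 14 called members with the smallest p have a value for every library. From each other list up to 3 called genes with the smallest p are named, and always ATF4, DDIT3, EIF2AK4 and EIF2AK1. Shared sequence was measured as words of 50 bases of GENCODE 29 transcripts: no pair of members shared one, and 35 of 38 members shared under 3% of theirs with any other gene. A planned comparison of protein sequences was not run. Alternatives were DESeq2 1.42.0, limma-voom 3.58.1, 2 other scalings, 2 other filters, protein-coding genes alone, an offset for GC content and length, the replicate number as a block, a threshold of 0.01, and each library left out. Figures were drawn with matplotlib 3.10.9.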

Additional observations from a re-analysis of the deposited data

How the results depend on the processing

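Of the 15 members called, 9 were called under all 16 alternative fits (SARS1, YARS1, GARS1, WARS1, EPRS1, TARS1, VARS1, AARS1 and AARS2), and 19 of the 23 others under none; no direction of a called member reversed. The number of cytosolic genes called ran from 9 to 13, with 7 higher and 2 lower under upper-quartile scaling and 10 in all at an adjusted p under 0.01. The number of mitochondrial genes called ran from 1 to 3 when a library was left out (1 without PARGi library 1 or 2, 3 without DMSO library 1 or 3) and was 1 at an adjusted p under 0.01. Over all genes, 3117 were called at an adjusted p under 0.01, 4151 by DESeq2, and 3607 to 4848 when a library was left out. Under upper-quartile scaling the summed level differed by 0.049 for cytosolic and 0.00026 for mitochondrial genes. With the replicate block, 4553 genes were called, 13 of them cytosolic and 2 mitochondrial members. Deviations from the group means had correlations of -0.0059, 0.016 and -0.0078 between same-numbered libraries. Between differently numbered libraries they ran from -0.029 to 0.035. The labels do not say whether a number marks a shared day, and with 3 libraries per group these values cannot settle it. SARS2, VARS2 and EEF1E1 were all under 3 CPM and are also the 3 members with large shared sequence; which of these limits their counts was not tested. Groups of 3 libraries were too small for a test of outlying libraries, and the ratio tests cannot reach a p under 0.1.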

Other observations

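Several members share a start region with a gene on the opposite strand, within 1000 bases. ORC3, a subunit of the origin recognition complex with a start 64 bases from that of RARS2, rose by 0.14 on the log2 scale (edgeR adjusted p 0.0114), while RARS2 had a log2 fold change of -0.082. HARS1 and HARS2 start 436 bases apart, and had log2 fold changes of 0.090 and 0.057. DDX19B, an RNA helicase gene 120 bases from AARS1, was not called (-0.033, edgeR adjusted p 0.661), nor was WDR25, 387 bases from WARS1 (0.0061, edgeR adjusted p 0.964). UBFD1, 369 bases from EARS2, gave 0.030 (edgeR adjusted p 0.489) and ING1, 867 bases from CARS2, gave -0.11 (edgeR adjusted p 0.0667). LYRM4, 105 bases from FARS2, gave -0.084 (edgeR adjusted p 0.149) and PMS2, 120 bases from AIMP2, gave -0.014 (edgeR adjusted p 0.817).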
